A study of Mus musculus with 2 samples.

Results

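Nuclear receptors are transcription factors, many of which are switched by small fat-soluble ligands such as hormones, retinoids, fatty acids and oxysterols. The genes described here are the 43 mouse nuclear receptor genes outside the circadian clock, taken by symbol from the 55536 annotated genes in the tables. The clock receptors of the REV-ERB and ROR groups stand apart, except for Rorb, which is included. Total RNA was sequenced from heart tissue of male mice of a cross between 5xFAD and CAST, aged 8 to 10 months. 5xFAD is a transgenic line that models brain amyloid with human transgenes driven by the neuronal Thy1 promoter, and CAST is an inbred strain derived from wild mice. The labels do not say which animals carried the transgenes. There was 1 group of 2 libraries, called library 1 and library 2 after their biological replicate numbers, each made from 300 ng of RNA. The labels list separate tissue samples under a shared donor identifier. The spread between these samples may therefore be technical, and with 1 group there was no contrast to test.

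A nuclear receptor binds DNA through a pair of zinc fingers, and many act as heterodimers with a retinoid X receptor (RXR). Ligand binding exchanges corepressors for coactivators. In heart muscle the PPARs and the estrogen-related receptors (ERRs) are known for the control of fatty acid oxidation and mitochondrial genes, and the thyroid hormone receptors for the control of contractile genes.

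The libraries held 39819960 and 37060119 expected counts, of which 21330687 and 20002688 fell on nuclear protein-coding genes. TPM is the abundance of a gene's transcripts per length and per library total. All 10 cardiomyocyte markers were detected, with summed levels of 39593 and 39229 TPM. All 10 endothelial, 10 fibroblast and 10 pericyte and smooth muscle markers were detected too. In such bulk tissue, fewer cells of a type and less RNA per cell cannot be told apart. Adipocyte markers differed between the libraries, with 25.6 TPM in library 1 and 60.3 TPM in library 2 summed over 8 genes, all of them higher in library 2. Of all 11940 genes that passed a filter on low values, 51.2% were higher in library 1 and 48.2% in library 2. Summed levels of 7 atrial markers, without the member Nr2f2, were 1210 and 1611 TPM, again with all 7 higher in library 2. Nr2f2, which is also on the list of 8, went the other way, at 7.34 and 5.73 TPM. No neuronal marker of 8 and no marker of steroid-producing cells of 6 was detected. The highest of these were Dbh, of the neuronal list, at 1.07 and 0.86 TPM and Star, of the steroid list, at 0.51 and 0.50. Of 8 liver markers 1 was detected, with the list summing to 3.16 and 4.37 TPM. That marker, Cyp2e1, stood at 1.34 and 3.39 TPM, Apoa2 at 1.55 and 0.64 and Alb at 0.08 and 0.03, and Apoa1, Serpina1a and Fgb were at 0.

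The DNA-reading stretch of the first zinc finger, the P box, separates the receptors into types, and the examples below show some types that the heart expressed. Each is 18 coding bases of the leading transcript, from the GENCODE M21 transcripts and the mm10 genome. Capitals mark the 3 codons whose residues differ between the types shown. All members but the glucocorticoid receptor Nr3c1 were looked at, and 40 of these 42 had this stretch, in 9 types by the residues of all 6 codons. Nr0b1 and Nr0b2 had none, as these receptors lack the DNA-binding domain. The most common type held 24 members, among them the RXRs, the PPARs and the thyroid, retinoic acid and oxysterol receptors. The ERRs formed a type of 3, the COUP receptors a type of 3, and the mineralocorticoid receptor Nr3c2 shared a type with the progesterone receptor Pgr. Rxra (chr2:27741787-27741804, plus strand), Rxrg (chr1:167627315-167627332, plus) and Nr1h2 (chr7:44552100-44552117, minus) are of the common type. Esrra (chr19:6920085-6920102, minus), Esrrg (chr1:188043710-188043727, plus) and Esrrb (chr12:86470516-86470533, plus) are the ERRs, Nr2f6 (chr8:71381035-71381052, minus) and Nr2f2 (chr7:70360027-70360044, minus) are COUP receptors, and Nr3c2 lies at chr8:77085627-77085644 on the plus strand.
Rxra: tgtGAGGGCtgcaagGGC
Rxrg: tgtGAAGGTtgcaaaGGC
Nr1h2: tgtGAAGGCtgcaaaGGC
Esrra: tgtGAGGCCtgcaaaGCC
Esrrg: tgtGAAGCCtgcaagGCA
Esrrb: tgcGAGGCTtgcaagGCG
Nr2f6: tgcGAGGGCtgcaagAGT
Nr2f2: tgcGAGGGCtgcaagAGC
Nr3c2: tgcGGCAGCtgcaaaGTC

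The second and the last codon in capitals separate the ERRs from the RXRs, and the last one also sets the COUP receptors apart from both. Among the examples of 1 type, the letters differ without changing the residue encoded.

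Of the 43 members, 24 were detected, meaning that both libraries reached 1 TPM. That is 55.8% of the members, against 48.8% of all 22015 nuclear protein-coding genes. The detected members had a median mean level of 9.51 TPM, and detected nuclear protein-coding genes one of 7.62 TPM. The 43 members summed to 302 ± 3.66 TPM (SD, n = 2), or 0.0923% ± 0.00112 of nuclear protein-coding TPM. The 5 highest, Esrra, Thra, Rxrg, Nr3c1 and Esrrg, held 45.7% of that sum. By mean level, 12 members stood at 10 TPM or more and 12 detected members below it.

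**Figure D1:**
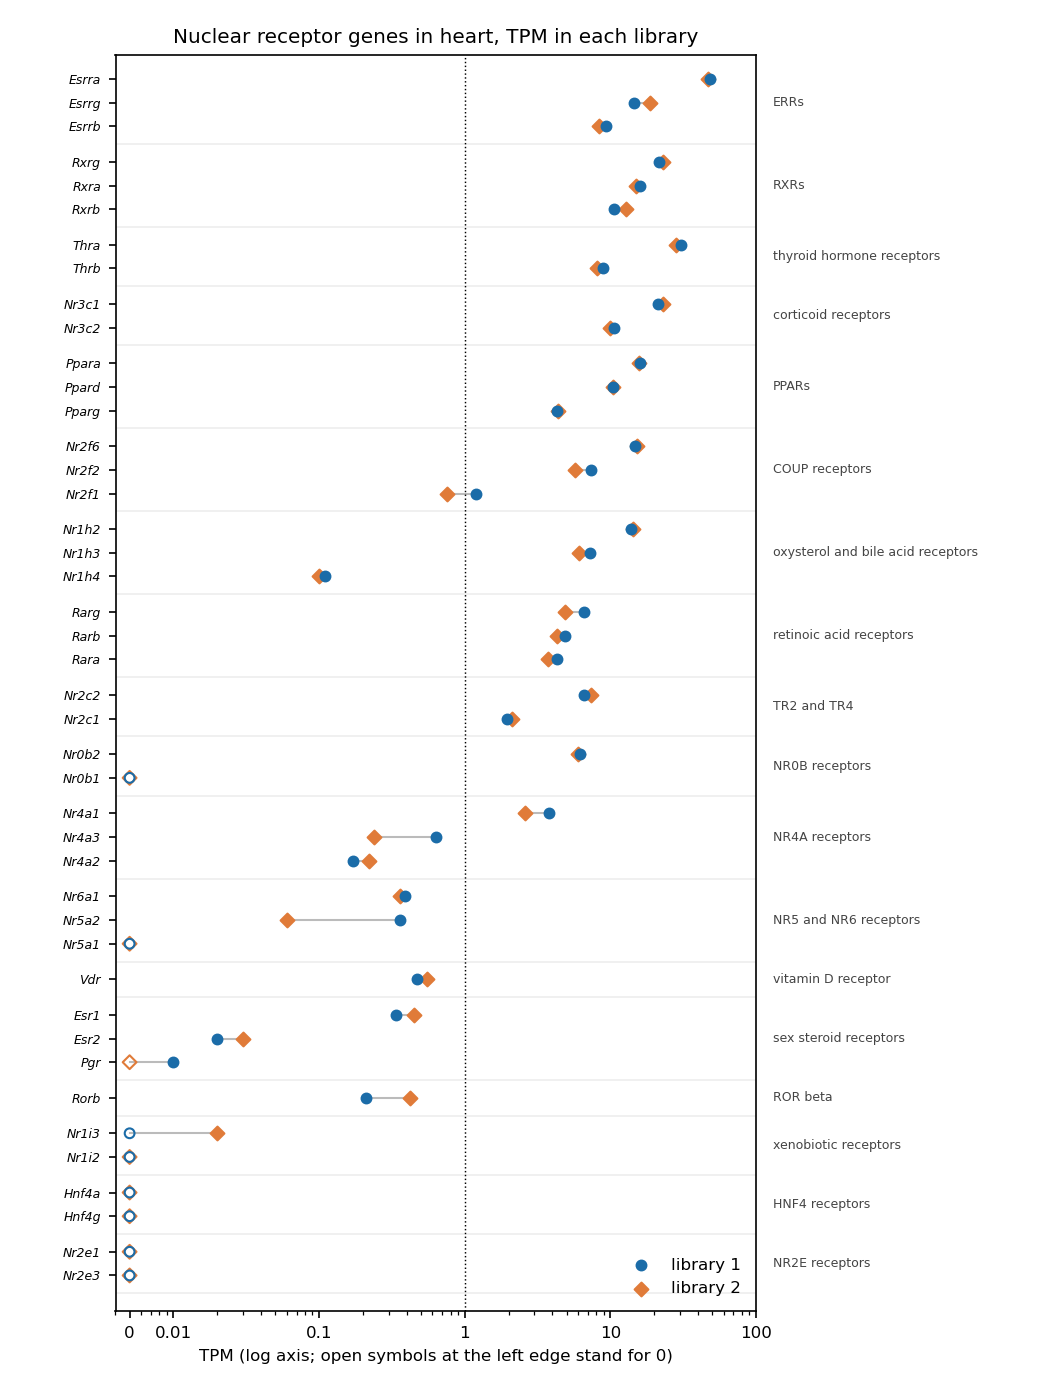
TPM of each of the 43 members on a log axis, grouped by receptor class, with a circle for library 1 and a diamond for library 2. The dotted line marks 1 TPM, open symbols at the left edge stand for 0, and Esrra stands highest in both libraries.

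The ERRs, orphan receptors that bind no known natural hormone, were the most abundant class, with a summed level of 73.0 ± 0.806 TPM (SD, n = 2). Esrra (chromosome 19, 6910977 to 6921813, minus strand), a regulator of mitochondrial genes, stood at 48.65 TPM in library 1 and 46.55 TPM in library 2, above 95.6% of nuclear protein-coding genes. Esrrg, its relative in oxidative tissues, stood at 14.48 and 18.67 TPM. Esrrb, best known from stem cells and the placenta, stood at 9.27 and 8.32 TPM. All 3 paralogs were thus present, and Esrra held 65.2% ± 2.76 of their summed TPM. Esrrg was the 1 detected member whose deposited TPM intervals did not overlap between the libraries. The level of these intervals is not stated. How many of all genes had intervals apart was not counted, so this is no result about Esrrg.

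All 15 genes of a list of ERR targets were detected. The ATP synthase subunit Atp5b stood at 2510 and 2591 TPM, the adenine nucleotide carrier Slc25a4 at 1468 and 1454, the cytochrome oxidase subunit Cox6a2 at 1085 and 1007, and mitochondrial creatine kinase, Ckmt2, at 854.7 and 865.5. The median log2 ratio of the list, library 1 over library 2, was -0.02, against 0.01 over all genes that passed the filter on low values. The list includes Esrra itself and shares Acadm with the PPAR list.

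The RXRs, the common heterodimer partners, summed to 49.6 ± 1.59 TPM. Rxrg (the form enriched in muscle) stood at 21.71 and 22.82 TPM, Rxra at 16.08 and 15.07 TPM, and Rxrb at 10.64 and 12.79 TPM. Rxrg thus held 44.9% ± 0.141 of RXR TPM, but expected counts, with no division by length, gave it 27.0% and placed Rxra first. As RXR partners, 14 members were counted here: the PPARs and the thyroid hormone, retinoic acid, oxysterol, bile acid, xenobiotic and vitamin D receptors. Members of other classes were not counted. The 14, 10 of them detected, summed to 107.99 and 100.82 TPM, which is 2.23 and 1.99 times the RXR sum in library 1 and library 2. The second quantification gave 2.42 and 2.11.

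The Rxrg level came almost wholly from a shorter coding form. Rxrg-202, of 340 codons, stood at 20.74 and 21.70 TPM and held 95.3% ± 0.311 of the coding TPM of the gene (93.2% in the second quantification). The transcripts with the upstream coding start stood at 0.97 and 1.12 TPM in all, and the longest, Rxrg-201, has 463 codons. The short form lacks 369 coding bases, or 123 codons, at the start and has 0 coding bases of its own. The first 45 coding bases of each form are shown because they are what separates the forms, at chr1:167625000-167625044 for Rxrg-202 and chr1:167598752-167598796 for Rxrg-201 (mm10, plus strand). Capitals mark bases that code in one form only.
Rxrg-202: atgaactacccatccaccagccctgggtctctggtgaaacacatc
Rxrg-201: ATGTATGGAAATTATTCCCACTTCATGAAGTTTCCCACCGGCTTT

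The PPARs, fatty acid sensors, summed to 30.6 ± 0.191 TPM. Ppara, the main PPAR of fatty acid oxidation, stood at 15.99 and 15.69 TPM. Ppard, found in many tissues, stood at 10.45 and 10.44 TPM. Pparg, the receptor of fat cell formation, stood at 4.30 and 4.34 TPM. The order of the 3 was the same in both libraries, and Ppara held 51.8% ± 0.370 of the sum. Pparg was level between the libraries, beside the higher adipocyte markers of library 2.

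Pparg has a coding start for the widely expressed form, Pparg1, and another for Pparg2, the form of fat cells. The Pparg2 transcript, Pparg-201, was at 0 TPM in both libraries, against 4.20 and 4.34 TPM for the coding transcripts with the Pparg1 start. Pparg-201 has 505 codons and Pparg-202, a Pparg1 transcript, has 475, with 90 coding bases found only in Pparg-201. The first 45 coding bases of each are shown, at chr6:115422111-115422155 for Pparg-201 and chr6:115439848-115439892 for Pparg-202 (mm10, plus strand), with capitals for bases that code in one form only.
Pparg-201: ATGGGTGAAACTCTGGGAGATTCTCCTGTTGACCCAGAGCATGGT
Pparg-202: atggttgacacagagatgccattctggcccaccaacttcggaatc

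Of 22 listed PPAR targets, 19 were detected, and 17 of these 19 were higher in library 2, against 48.2% of all genes that passed the filter, with a median log2 ratio of -0.12. The fatty acid carrier Fabp3 stood at 2192 and 2400.0 TPM, the fatty acid transporter Cd36 at 631.7 and 630.9, and the oxidation enzymes Acadm and Hadha at 522.4 and 523.4 and at 432.9 and 464.6. Among the targets, chosen after their values were seen, Pdk4 stood at 90.79 and 152.92 TPM, Ucp3 at 17.68 and 25.71 and Angptl4 at 3.13 and 5.76. No PPAR had an interval of its count ratio between the libraries that excluded 1. The part of fat tissue in the list's values was not tested.

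The thyroid hormone receptors summed to 38.0 ± 2.35 TPM. Thra (chromosome 11, plus strand), the main receptor of the heart, stood at 30.74 and 28.34 TPM, and Thrb, the main one in liver, at 8.96 and 8.04 TPM. Thra held 77.7% ± 0.332 of the sum. Of 16 listed thyroid hormone genes 11 were detected, led by Myh6 at 6620 and 6911 TPM, Atp2a2 at 3798 and 3826, Pln at 2287 and 2314, and Myh7 at 768.0 and 741.2. The thyroid hormone transporter Slc16a10 stood at 6.38 and 6.23 TPM. The deiodinases, which activate or inactivate the hormone, were not detected: Dio1 was at 0 TPM in both libraries, Dio2 at 0.16 and 0.15, and Dio3 at 0.04 and 0.07. Slc16a10 and the deiodinases were chosen after their values were seen.

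Thra makes 2 products that part near the end of the coding sequence. The alpha1 product binds thyroid hormone, and the alpha2 product does not. Transcripts with the alpha1 end stood at 13.57 and 10.73 TPM, and those with the alpha2 end at 15.62 and 15.17 TPM. The alpha1 end held 43.5% ± 4.17 and the alpha2 end 55.5% ± 2.75 of the coding TPM of the gene, and 42.8% and 57.2% in the second quantification. Both ends were therefore expressed at like levels, with the alpha2 end higher in both libraries. The gene shares 263 of its 4614 exon bases with Nr1d1, a clock receptor on the opposite strand, at 31.01 and 21.43 TPM. The shared bases lie on the side of the alpha2 end, and whether the counting used strand is not given in the sources used here. The last 15 shared coding bases, in lower case, and the first 30 that follow in each form, in capitals, show where the products part. The capitals lie at chr11:98764406-98764435 for Thra-202 (alpha1, 410 codons) and chr11:98768157-98768186 for Thra-201 (alpha2, 492 codons), mm10, plus strand.
Thra-202: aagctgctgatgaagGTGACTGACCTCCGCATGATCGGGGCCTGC
Thra-201: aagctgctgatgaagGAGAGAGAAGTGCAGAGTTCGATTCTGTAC

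**Figure D2:**
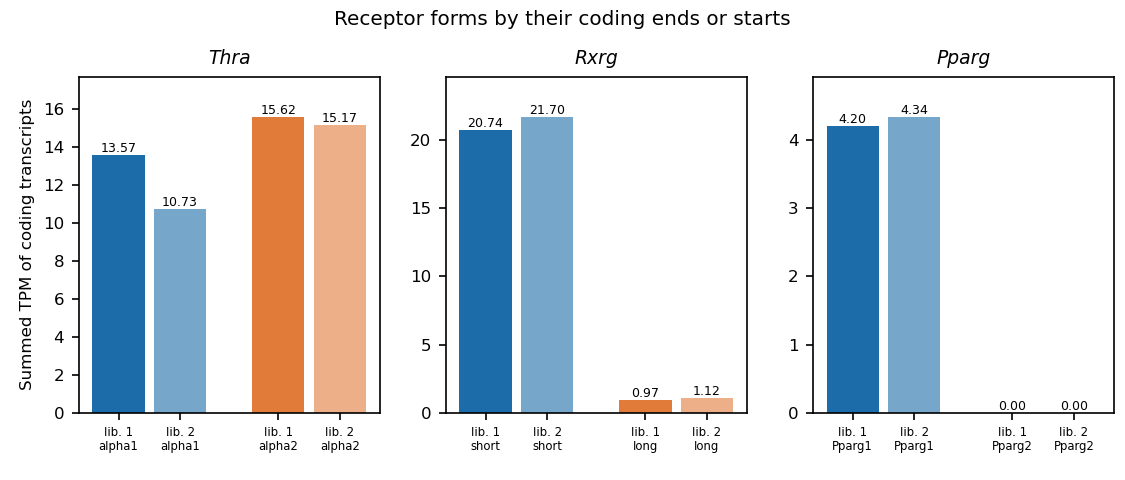
Summed TPM of coding transcripts of Thra, Rxrg and Pparg by form, with a bar per library. The alpha1 and alpha2 ends of Thra are close in level, the short form makes up nearly all of Rxrg, and the Pparg2 start is at 0.

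The corticoid receptors summed to 32.2 ± 0.721 TPM. Nr3c1, the glucocorticoid receptor, stood at 21.14 and 22.85 TPM, and Nr3c2, the mineralocorticoid receptor, at 10.57 and 9.88 TPM. Nr3c1 held 68.2% ± 2.23 of the pair. The values of Nr3c1 and Rxrg overlapped between the libraries, so their order was not resolved. Hsd11b1, which makes active glucocorticoid, stood at 5.49 and 6.07 TPM, and Hsd11b2, which inactivates it in aldosterone target tissue, at 0.07 and 0 TPM. Of 16 listed genes of this pathway 14 were detected, led by the receptor chaperone Hsp90ab1 at 356.7 and 367.1 TPM, Ptgds at 205.7 and 226.0, the cochaperone Fkbp4 at 120.9 and 119.6, and the glucocorticoid-induced Tsc22d3 at 39.91 and 43.57. Hsd11b1 and Hsd11b2 were chosen after their values were seen.

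The COUP receptors, orphan receptors of the NR2F group, summed to 22.5 ± 1.22 TPM. Nr2f6 stood at 14.82 and 15.13 TPM, and Nr2f2, which gives atria and veins their identity, at 7.34 and 5.73 TPM. Nr2f1 stood at 1.19 and 0.76 TPM and so missed the detection level in library 2. The Nr2f2 count ratio between the libraries was 1.05, with an exact 95% interval of 0.924 to 1.19 that includes 1. Nr2f6 shares 1622 of its 2983 exon bases, or 54.4%, with Ocel1 on the opposite strand, at 3.55 and 4.10 TPM, so part of its level is uncertain.

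The liver X receptors, sensors of oxysterols, stood at 13.95 and 14.38 TPM for Nr1h2 and at 7.30 and 6.07 TPM for Nr1h3. Nr1h2, the more widely expressed of the pair, held 68.0% ± 3.30. The bile acid receptor Nr1h4 stood at 0.11 and 0.10 TPM and was not detected. Of 12 listed liver X receptor targets 10 were detected, 1 of them Nr1h3. Apoe stood at 91.12 and 85.12 TPM, the fatty acid desaturase Scd1 at 7.69 and 24.32, the lipid transfer protein Pltp at 12.85 and 14.17, and Lpcat3 at 12.44 and 12.49. Scd1 thus differed most of these 4, higher in library 2.

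The retinoic acid receptors summed to 14.3 ± 2.03 TPM, with higher TPM in library 1 for all 3, although the count interval of Rara includes 1. Rarg stood at 6.55 and 4.85 TPM, Rarb at 4.87 and 4.29 TPM, and Rara at 4.30 and 3.71 TPM. The deposited bounds of Rarg were wide, 6.13 to 15.06 and 4.73 to 13.95 TPM, with its TPM near the lower bound in both libraries. Rarg led with 39.7% ± 2.77 of the sum, the smallest leading share among the 10 groups of paralogs with a detected member. Rarb shares 1793 of its 5265 exon bases, or 34.1%, with Top2b on the opposite strand, at 17.74 and 16.63 TPM. Of 14 listed retinoid genes 7 were detected. The retinaldehyde reductase Dhrs3 stood at 31.45 and 30.76 TPM, Rarres2 at 26.83 and 27.54, the retinaldehyde dehydrogenase Aldh1a1 at 8.40 and 10.37, and Cyp26b1, which degrades retinoic acid, at 6.49 and 2.00.

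Among the remaining orphan receptors, Nr2c2 (TR4) stood at 6.55 and 7.40 TPM and Nr2c1 (TR2) at 1.95 and 2.12 TPM. Nr2c2 shares 4590 of its 14935 exon bases, or 30.7%, with Mrps25 on the opposite strand, at 27.65 and 27.41 TPM. Nr0b2, also known as SHP, a repressor that lacks a DNA-binding domain and is best known from bile acid feedback in liver, stood at 6.17 and 6.03 TPM. Nr4a1, an immediate early gene, stood at 3.82 and 2.61 TPM, and its relatives Nr4a3 and Nr4a2 at 0.63 and 0.24 TPM and at 0.17 and 0.22 TPM. Nr4a1 held 83.9% ± 1.65 of the summed TPM of these 3. By expected counts, with no division by length, Nr4a1 held 60.0% and Nr4a3 30.3%.

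**Figure D3:**
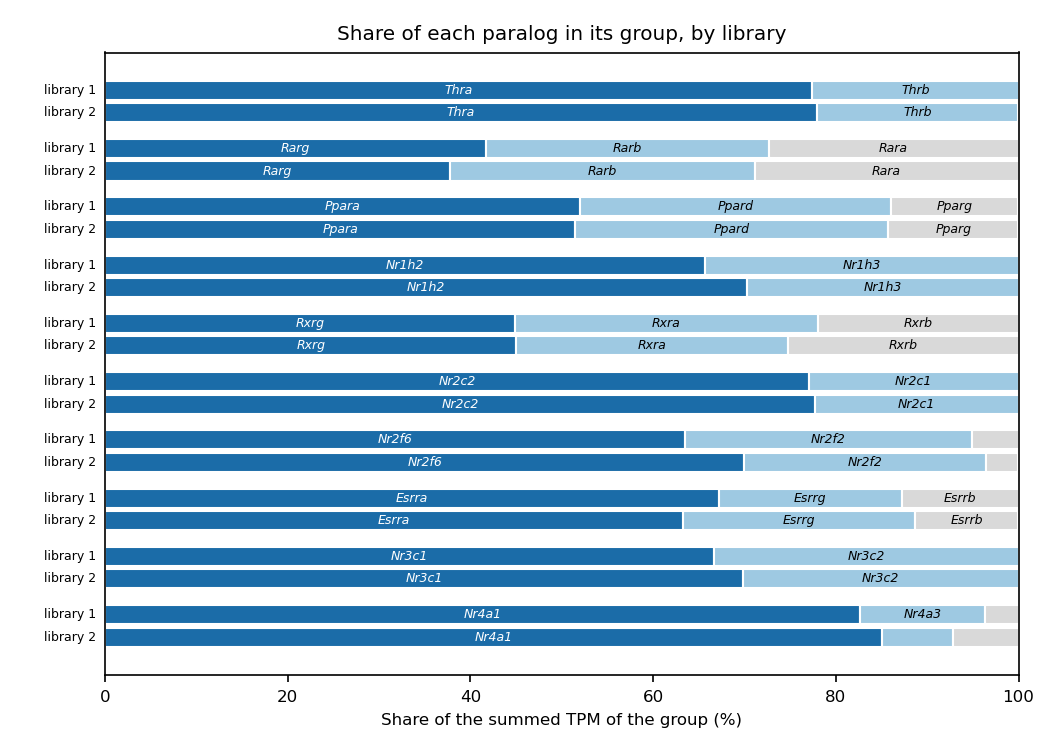
Share of each paralog in the summed TPM of its group (%), with a bar per library for the 10 groups that hold a detected member. The leading paralog, in dark blue, is the same in both libraries in every group shown.

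The other 19 members were not detected. Hnf4a and Hnf4g, Nr1i2 (the pregnane X receptor), Nr0b1 and Nr5a1 (of adrenal and gonad), and Nr2e1 and Nr2e3 (of brain and retina) had 0 counts in both libraries of the first quantification. A count of 0 allows up to 3 counts, which corresponds to 0.0352 to 0.0804 TPM for these 7 genes. Some of their deposited upper bounds were higher, with 0.551 and 0.584 TPM for Nr2e3. The other 12 had counts. Besides Nr2f1, Nr4a3, Nr4a2 and Nr1h4 they were the vitamin D receptor Vdr at 0.47 and 0.55 TPM, the estrogen receptors Esr1 at 0.34 and 0.45 and Esr2 at 0.02 and 0.03, Nr6a1 at 0.39 and 0.36, Rorb at 0.21 and 0.42, Nr5a2 at 0.36 and 0.06, Nr1i3 (the xenobiotic receptor CAR) at 0 and 0.02, and Pgr at 0.01 and 0.

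Few of the genes listed for these receptors were detected, beside 48.8% of all nuclear protein-coding genes. Of 11 listed targets of the bile acid, xenobiotic and vitamin D receptors 3 were detected and 6 were at 0. The sterol hydroxylase Cyp27a1 stood at 5.91 and 7.08 TPM, the drug efflux pump Abcb1a at 4.11 and 3.67, Cyp2b10 at 2.05 and 1.89 and Slc51a at 0.08 and 0.03. Of 7 estrogen and progesterone genes 2 were detected, Pgrmc2 at 10.83 and 12.01 TPM and Pgrmc1 at 6.63 and 7.19, and next came Gper1 at 0.46 and 0.49 and Greb1 at 0.38 and 0.15. Nr1i3 shares 3304 of its 4414 exon bases, or 74.9%, with Tomm40l on the opposite strand, at 35.36 and 31.94 TPM. Nr1i3 had 0 and 2 counts, and the effect of the overlap on these was not tested.

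All 18 listed coactivators and corepressors were detected, from 3.18 to 50.1 TPM on average. The corepressor Ncor1 stood at 47.04 and 53.19 TPM. The coactivator Ppargc1a, a partner of the ERRs and PPARs, stood at 26.84 and 26.45, and the corepressor subunit Tbl1xr1 at 21.98 and 27.06. Among the clock receptors, Nr1d2 stood at 29.65 and 31.13 TPM, Nr1d1 at 31.01 and 21.43, and Rora at 7.99 and 8.77.

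Between the libraries, of the 24 that passed a filter on low values (an average of 1 TPM or more, with 10 or more counts in a library), 0 passed 1.5-fold on the log2(TPM + 1) scale, against 2.17% of 11940 genes, so the count is close to the share over all genes. With expected counts scaled by edgeR's TMM or DESeq2's size factors, 1 member passed, Nr4a1. Their median log2 ratio, library 1 over library 2, was 0.05, against 0.01 over all of these genes, with 15 members higher in library 1 and 9 higher in library 2, beside the shares of 51.2% and 48.2% over all genes. The ratio of expected counts, scaled by nuclear protein-coding counts, had an exact 95% interval that excluded 1 for 8 of the 24, or 33.3%, against 23.2% of all genes. These intervals cover counting error only and take the scale as known. The 8 members were the same when edgeR's TMM or DESeq2's size factors set the scale.

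Of those 8 members, 5 were higher in library 1. Nr4a1 had 185 counts in library 1 and 104 in library 2, a scaled ratio of 1.67 (1.30 to 2.14). The ratio was 1.23 (1.07 to 1.41) for Rarg, 1.22 (1.06 to 1.41) for Rarb, 1.21 (1.11 to 1.32) for Esrrb and 1.17 (1.09 to 1.25) for Thra. The 3 that were lower in library 1 were Esrrg at 0.916 (0.861 to 0.976), Nr2c2 at 0.892 (0.827 to 0.962) and Rxrb at 0.878 (0.791 to 0.974). Nr4a1 thus differed most, from few counts. Markers of other cell types moved both ways. In library 1, 9 of 10 endothelial markers were higher (577.0 and 573.5 TPM summed), 9 of 10 fibroblast markers (461.2 and 433.3 TPM) and 7 of 10 pericyte and smooth muscle markers (304.9 and 293.8 TPM). In library 2, the adipocyte markers and 7 of 8 atrial markers, all but Nr2f2, were higher. So were 6 of 9 detected macrophage markers (85.6 and 93.6 TPM summed over the list). Their part in these ratios was not tested.

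**Figure D4:**
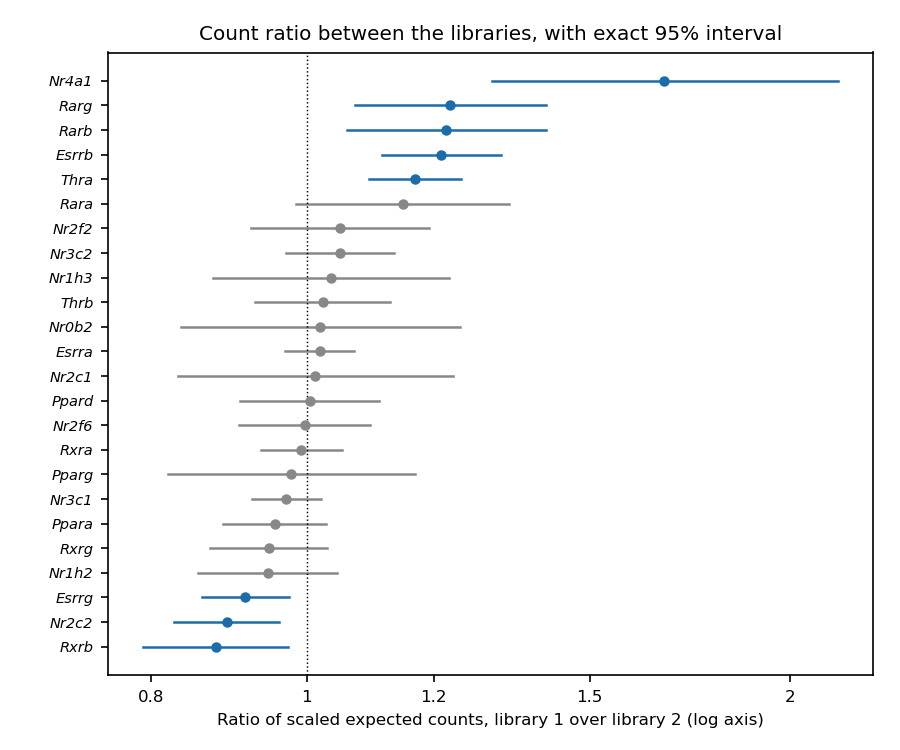
Ratio of scaled expected counts, library 1 over library 2, on a log axis for the 24 members that passed the filter, with exact 95% intervals. Blue marks the 8 intervals that exclude 1, and Nr4a1 stands at 1.67.

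By mean TPM in the first quantification, all 24 detected members had a leading transcript of the protein-coding type. The same share over all genes was not counted, so this is no result about the members. The leading transcript held at least 50% of the gene's TPM in 14 members and at least 80% in 6, also without a share over all genes beside it. Those 6 were Nr0b2 with 100%, Rxrg with 95.3%, Esrra with 92.8%, Rxra with 86.7%, Nr2f6 with 84.3% and Rarb with 82.6%. In the second quantification the same transcripts held, in that order, 100%, 93.2%, 71.8%, 86.2%, 83.1% and 54.0%. Those of Esrra and Rarb thus fell below 80% there. In library 1 of that quantification, Nr1h3 was led by Nr1h3-207, a transcript of 378 bases not annotated as coding. The leader was the same in both libraries for 21 members and in both quantifications for 18. Esrrg was among those that differed: Esrrg-201, with the upstream coding start, held 60.0% of the coding TPM in library 1 and 41.7% in library 2, with a mean of 50.9%, against 28.9% by the second quantification. By the first, this coding start stood at 8.25 and 7.49 TPM, and transcripts with the downstream coding start at 5.49 and 10.48 TPM, of which Esrrg-204, a transcript of 450 bases, held 2.36 and 5.72. These are places where the coding sequence begins, and transcripts that share one can begin at different places. For Thrb, over transcripts above 1000 bases, the upstream coding start stood at 2.47 and 3.13 TPM and the downstream one, that of Thrb-202, at 2.53 and 2.57 TPM. On average these held only 36.2% and 32.7% of the coding TPM of the gene, and 29.6% and 23.9% in the second quantification. There Thrb-206 was the leading transcript in both libraries. Per gene, the ratio of the second quantification to the first ran from 0.895 to 1.26 over these 24 members.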

How the data were processed

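The deposited readme names mm10 as the assembly and GENCODE M21 as the annotation. The aligner, quantification programs and strand setting are not given in the sources consulted. The first quantification holds, per the file headers, expected counts, TPM and FPKM per gene and per transcript, with deposited bounds of each TPM whose level is not stated. FPKM values, scaled by the authors for length and depth, served only as an alternative. The second quantification gives, per the file headers, an estimated count and a TPM for each transcript, and TPM was summed per gene here. Libraries held 39819960 and 37060119 expected counts.

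The members, companion lists and markers were chosen with earlier results of these data known. All 43 members are named, those with a mean of at least 1 TPM with both values, and of each companion list the 4 genes with the highest mean TPM, a few of which are not reported here. 1 listed symbol was not analysed here. A single group allows no test, and no p-value was computed. Expected counts were rounded, and their ratio has an exact Clopper-Pearson 95% interval given the sum, scaled by nuclear protein-coding counts. Overlaps and coding sequences came from GENCODE M21. The fold rule and the interval were tried on counts simulated with counting error only, which is what the interval assumes. That trial cannot show how either behaves with a wider spread. R 4.3.3 with edgeR 4.0.16 gave TMM factors and with DESeq2 1.42.0 size factors. Intervals came from scipy 1.17.1 under Python 3.11.15, with pandas 2.3.3, numpy 2.4.6, Biopython 1.88 and matplotlib 3.10.9.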

Additional observations from a re-analysis of the deposited data

How the results depend on the processing

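The number of members detected, 24, ranged from 23 to 31 over a threshold of 0.5 or 2 TPM, a count of at least 10, the second quantification, FPKM and protein-coding transcripts only, and was 24 to 25 when either library was left out. Members past 1.5-fold went from 0 to 1, Nr4a1, when expected counts were scaled by edgeR's TMM factors, and also to 1 with DESeq2's size factors. Their share of nuclear protein-coding expression, 0.0923%, was 0.0902% in the second quantification, 0.126% by expected counts and 0.0990% over protein-coding transcripts only, and 0.0915% to 0.0931% with either library left out. The leading paralog held in 9 of 10 groups by expected counts. The exception was the RXRs, where Rxrg fell to 27.0%, since counts are not divided by length. Of the 24 detected members, 13 kept their mean TPM within 1 SD in the second quantification and 11 did not, with the same counts over protein-coding transcripts only. The check of the count intervals under other scales was chosen after seeing the data. No paired analysis was possible because there is 1 group. With n = 2, each SD rests on a single difference.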

Other observations

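Nr1h2 was the 1 detected member whose deposited TPM lay outside the bounds deposited with it, in both libraries, and the other 23 lay inside. Nr4a3, an immediate early gene below the filter on low values, had 113 counts in library 1 and 42 in library 2, a scaled ratio of 2.52 (exact 95% interval 1.76 to 3.69). Of its relatives, Nr4a1 had a ratio of 1.67, and Nr4a2, with 18 and 23 counts, one of 0.734 (0.373 to 1.42), an interval that includes 1. Nr5a2 had 17 and 7 counts, with an interval of 0.898 to 6.50 that includes 1. Rorb, also below the filter, was higher in library 2, with 63 and 83 counts and a ratio of 0.712 (0.505 to 0.9996). How many of all genes below the filter had an interval that excludes 1 was not counted.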
